A study of Mus musculus with 8 samples.

Results

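Transcription factors that specify the granulocyte and monocyte lineages were followed through bone marrow of mice with an activated Jak2 allele. The set holds 10 genes, chosen by symbol out of 23337 in the count table: Cebpa, Cebpb, Cebpd, Cebpe, Spi1, Irf8, Gfi1, Runx1, Klf4 and Id2. Of these, 9 are listed under the same symbol, and Spi1, which encodes PU.1, is listed under its older symbol Sfpi1. All 10 passed the filter on low counts in each comparison. The choice did not use measured values, but it was made with earlier results of these data known.

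Myeloid cells arise from progenitors in which PU.1 and C/EBP alpha are active. Runx1 acts upstream of both in blood stem cells. Granulocyte fate then depends on Cebpa, on the repressor Gfi1 and, at the myelocyte stage, on Cebpe, which is needed for secondary granules. Monocyte and dendritic cell fate depends on Irf8, with Klf4 acting in the same direction. Cebpb serves granulocyte production under stress, Cebpd is induced in inflammation and late granulocytes, and Id2 blocks the DNA binding of E proteins. In the erythroid lineage PU.1 and Gata1 oppose each other.

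Messenger RNA was measured in C57BL/6 mice, 4 months old, in 4 groups of 2 libraries. All mice carry JAK2V617F/+, 1 activated copy of the kinase gene that drives polycythemia vera. Erythroblasts, which are red cell precursors that still have a nucleus, were taken as TER119-positive cells from mice labelled Plek2-/- or Plek2+/+, and so did Kit-positive cells of the lineage-negative marrow fraction, called progenitors here. Plek2 encodes pleckstrin-2, a phosphoinositide-binding protein of erythroblasts. How the Jak2 and Plek2 alleles were made is not given in the sources used here. Neither is it given whether each library is 1 mouse, so p-values measure the spread between libraries, which may be technical.

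Library totals ran from 16038035 to 23521726 counts. A count of 0 would allow 3 counts, or 0.128 to 0.187 counts-per-million (CPM) on unscaled library totals, for counting error only. All other CPM values are on TMM-scaled totals, where this range differs. Plek2 itself goes against the labels in progenitors: it had 130 and 173 reads in those labelled Plek2-/-, against 29 and 21 in those labelled Plek2+/+, while erythroblasts had 616 and 781 against 1770 and 1894. The female-specific RNA Xist averaged 3.50 and 2.17 CPM in erythroblasts and progenitors labelled Plek2-/-, against 2589 and 2975 CPM in those labelled Plek2+/+, so sex and Plek2 label cannot be told apart in the comparisons of labels and in their interaction. Erythroblast markers were high in TER119-positive libraries (10 genes summing to 43267 to 47457 CPM, against 1072 to 1189 CPM in progenitors), and stem and progenitor markers in the Kit-positive ones (10 genes summing to 101 to 142 CPM in erythroblasts, against 643 to 722 CPM in progenitors).

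The comparison of Plek2 labels asks how the factors differ within each population. In erythroblasts labelled Plek2-/-, Cebpe and Spi1 fell 1.57-fold and 1.53-fold and no factor was called higher. In progenitors labelled Plek2-/-, the granulocytic factors Cebpe and Cebpd rose 1.94-fold and 1.79-fold, Id2 rose 1.41-fold and Cebpa fell 1.27-fold. Directions in progenitors follow labels that Plek2 itself goes against. Under the labels as given, the difference between the populations was past the threshold for Cebpe, Cebpd, Spi1, Id2 and Gfi1. With the progenitor labels exchanged, an alternative chosen after seeing the data, none of these 5 was called, and every change given for progenitors would turn its sign. Sex follows the labels in both populations, so the exchange turns sex too, and Xist stood at log2 -19.95 in the exchanged interaction. A sex difference common to both populations cancels under the labels as given and enters the exchanged interaction. Its part in the factors was not tested. These are bulk samples, so fewer cells of a type and less RNA per cell cannot be told apart.

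Of 10 factors, 2 were called lower and 0 higher in erythroblasts (edgeR quasi-likelihood test, Benjamini-Hochberg adjusted p below 0.05 over all genes tested), where 2.66% of all genes were called lower and 0.180% higher. In progenitors 3 were called higher and 1 lower, where 4.50% and 0.402% of all genes were. The interaction, the effect in erythroblasts minus the effect in progenitors, was called below 0 for 5 of 10, against 5.32% of all genes, with 0.232% above 0. With the progenitor labels exchanged 1 of 10 was called, Cebpa, below 0 (log2 -0.73, edgeR adjusted p = 0.0292), against 1.07% of all genes. The median log2 fold change of the factors was -0.40 in erythroblasts (all genes tested 0.0109) and 0.24 in progenitors (all genes tested -0.0101). Both libraries labelled Plek2-/- lay below both labelled Plek2+/+ in erythroblasts for 8 of 10 factors, against 23.9% of all genes, and above for 0, against 21.5%. In progenitors 5 factors lay above (19.0% of all genes) and 4 below (33.2% of all genes). The erythroblast calls of Cebpe and Spi1 were lost without Plek2+/+ replicate 1, Plek2+/+ replicate 2 or Plek2-/- replicate 2. In progenitors the calls of Cebpa and Id2 were lost without Plek2+/+ replicate 1 or 2. Those of Cebpe and Cebpd held without any 1 library. In both populations the number of all genes called also changed widely with the library left out.

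**Figure D1:**
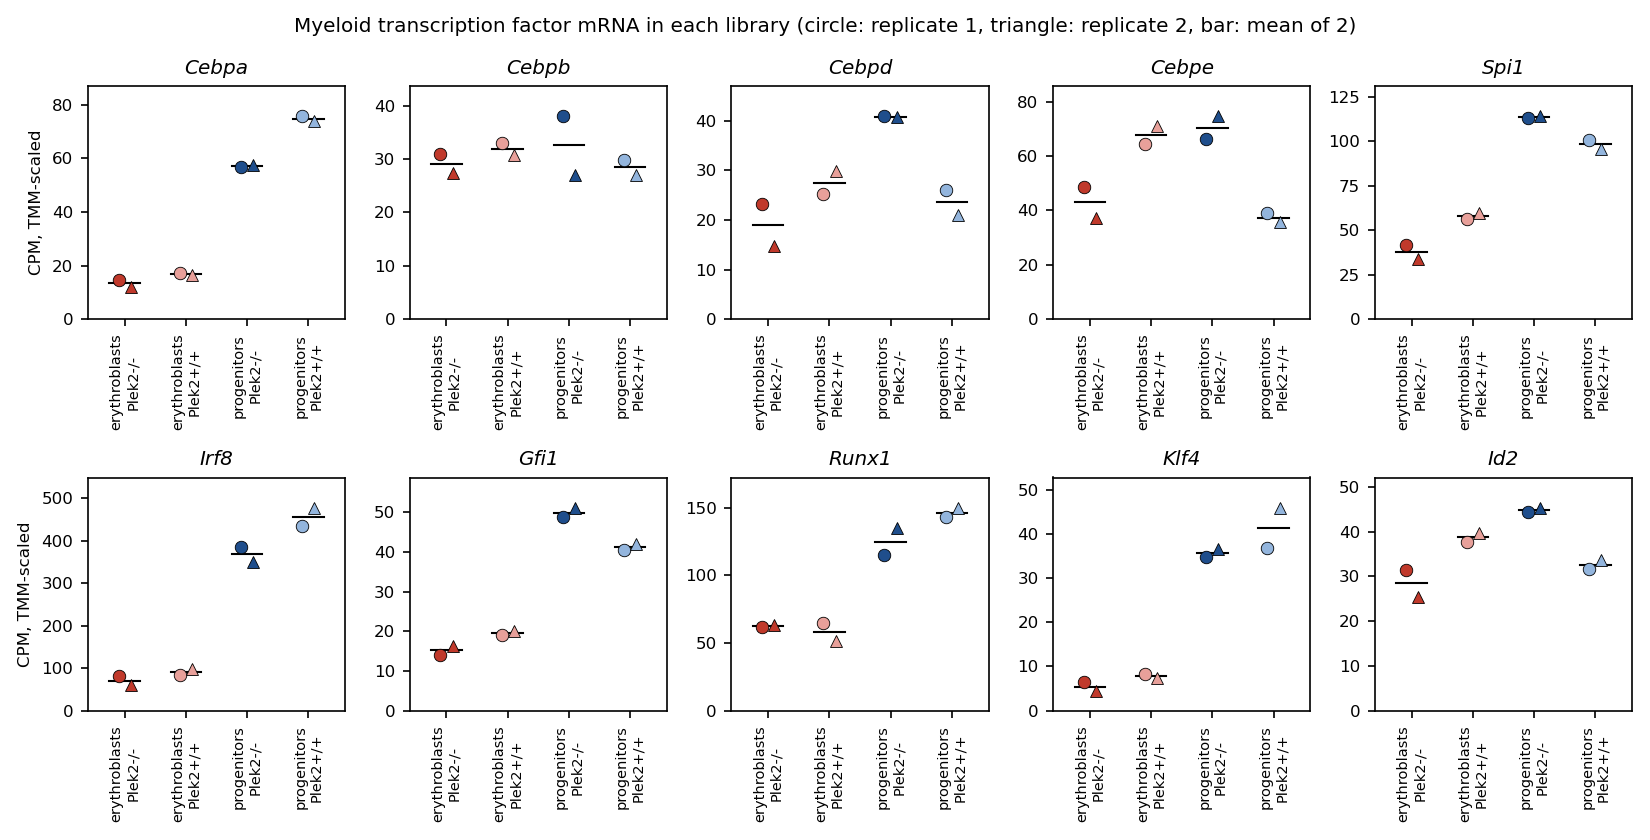
Level of each of the 10 factors in CPM on TMM-scaled totals (vertical axis, linear from 0) in the 8 libraries, by population and Plek2 label; circles are replicate 1, triangles replicate 2 and bars the mean of 2. Cebpe stands at 37.1 and 48.8 CPM in erythroblasts labelled Plek2-/- and at 66.3 and 74.6 CPM in progenitors labelled Plek2-/-, while Irf8 and Klf4 are far higher in the progenitors.

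**Figure D2:**
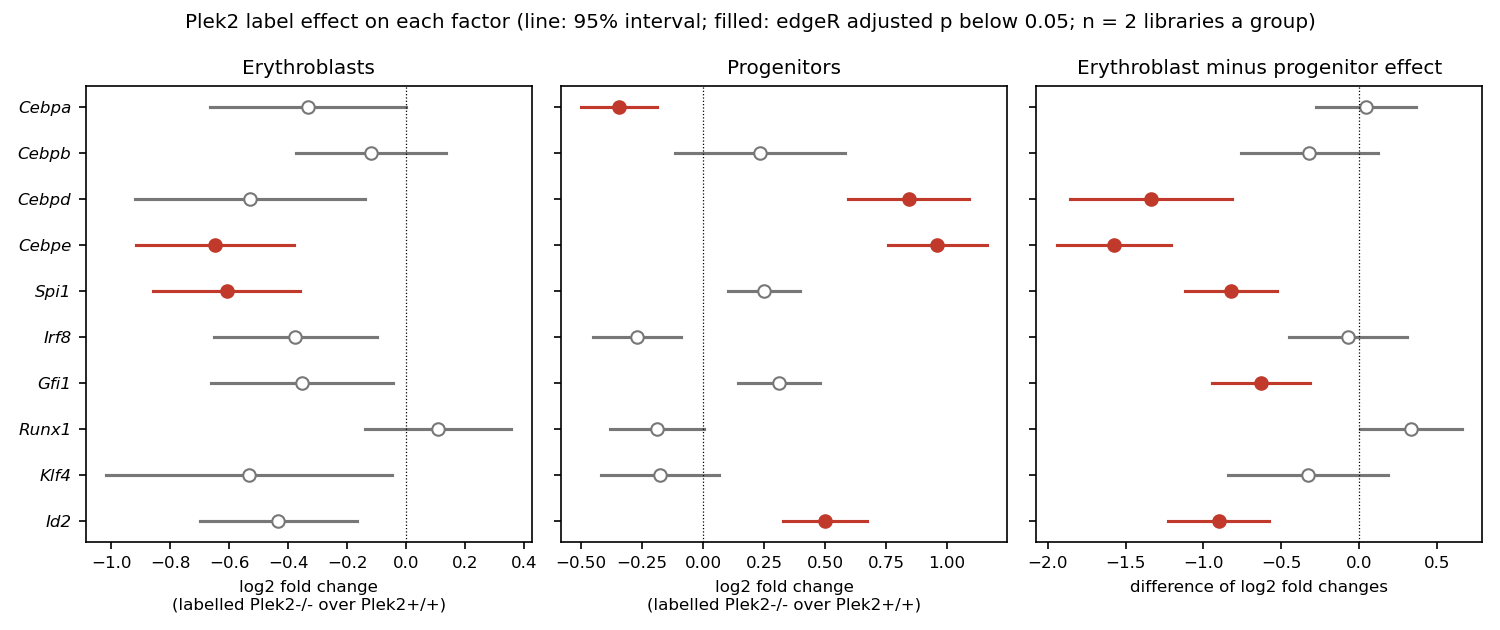
Log2 fold change of each factor, libraries labelled Plek2-/- over those labelled Plek2+/+, in erythroblasts (left) and progenitors (middle), and the difference of these effects under the labels as given (right); lines are 95% intervals and filled points have an edgeR adjusted p below 0.05 (n = 2 libraries a group). Cebpe and Cebpd have negative values at the left and positive values in the middle, while Cebpa and Irf8 are negative in both.

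Cebpe, the factor of late granulocyte maturation, lies on chromosome 14 from 54710360 to 54712174 (GRCm38, minus strand) and has 2 exons. In erythroblasts it had 48.8 and 37.1 CPM in the libraries labelled Plek2-/-, against 64.4 and 70.9 CPM in those labelled Plek2+/+ (CPM on TMM-scaled totals here and below). Both Plek2-/- values lie below both Plek2+/+ values, and Cebpe changed by log2 -0.65 (SE 0.12; edgeR adjusted p = 0.0179 with all libraries, and 0.056 to 0.142 without Plek2-/- replicate 2 or either Plek2+/+ library). In progenitors it had 66.3 and 74.6 CPM in the libraries labelled Plek2-/-, against 38.9 and 35.8 CPM in those labelled Plek2+/+. Here both Plek2-/- values lie above, by 0.96 on the log2 scale (SE 0.09, edgeR adjusted p = 0.00169), and the call held without any 1 library. The interaction was -1.58 (SE 0.17, edgeR adjusted p = 0.000272) under the labels as given. It was 0.26 (95% interval -0.11 to 0.63, edgeR adjusted p = 0.548) with the progenitor labels exchanged. Erythroblasts labelled Plek2+/+ and progenitors labelled Plek2-/- overlapped in level, and so did the other pair of groups.

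Cebpd, a C/EBP gene induced by inflammatory cytokines, lies on chromosome 16 from 15887286 to 15891031 (plus strand). Its 23.3 and 14.7 CPM in erythroblasts labelled Plek2-/- lay below the 25.2 and 29.9 CPM in those labelled Plek2+/+, without a call (log2 -0.53, SE 0.18, edgeR adjusted p = 0.163). In progenitors it rose to 40.9 and 40.7 CPM in the libraries labelled Plek2-/-, against 26.0 and 21.1 CPM in those labelled Plek2+/+. This was a change of 0.84 on the log2 scale (SE 0.11, edgeR adjusted p = 0.00395), and the interaction was -1.34 (SE 0.24, edgeR adjusted p = 0.00461). Both held without any 1 library, but the interaction was 0.26 (edgeR adjusted p = 0.71) with the progenitor labels exchanged.

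Cebpa, which drives the step from multipotent to granulocyte-monocyte progenitors, lies on chromosome 7 from 35119293 to 35121928 (plus strand) as a single exon. Among the C/EBP genes it alone was called lower in progenitors labelled Plek2-/-: 56.8 and 57.5 CPM, against 75.6 and 73.9 CPM in those labelled Plek2+/+. The groups do not overlap, and the label effect was log2 -0.34 (SE 0.07, edgeR adjusted p = 0.0252; 0.342 and 0.334 without Plek2+/+ replicate 1 or 2). In erythroblasts it had 14.7 and 12 CPM in libraries labelled Plek2-/-, against 17.1 and 16.6 CPM in those labelled Plek2+/+ (log2 -0.33, SE 0.15, edgeR adjusted p = 0.341). The interaction was 0.04 (95% interval -0.28 to 0.36, edgeR adjusted p = 0.913), and -0.73 with the progenitor labels exchanged.

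Cebpb, the emergency granulopoiesis factor, lies on chromosome 2 from 167688915 to 167690418 (plus strand) and had no call between labels. It had 30.9 and 27.4 CPM in erythroblasts labelled Plek2-/-, against 33.0 and 30.7 CPM in those labelled Plek2+/+ (log2 -0.12, 95% interval -0.37 to 0.13). In progenitors it had 38.0 and 27.1 CPM in libraries labelled Plek2-/-, against 29.9 and 27.1 CPM in those labelled Plek2+/+ (log2 0.23, 95% interval -0.12 to 0.58). The libraries of each pair of groups overlap. In progenitors the value rests on 1 library: it was 0.46 (edgeR adjusted p = 0.000791) without Plek2-/- replicate 2 and -0.027 without Plek2-/- replicate 1.

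The mix of C/EBP messages shifted with these changes. Within a library, such shares do not depend on how libraries are scaled, though they are shares of reads and not of molecules. Cebpe took 32.8% and 37.3% of the reads of the 4 genes in progenitors labelled Plek2-/-, against 22.8% and 22.7% in those labelled Plek2+/+. Cebpa took 28.1% and 28.8%, against 44.4% and 46.8%. There were 1.17 and 1.30 Cebpe reads per Cebpa read in progenitors labelled Plek2-/-, against 0.515 and 0.485 in those labelled Plek2+/+. In erythroblasts that ratio was 3.32 and 3.10 under the Plek2-/- label, against 3.77 and 4.27 under Plek2+/+, so the libraries of each pair were apart in opposite directions. With 2 libraries against 2 no exact permutation test of such a ratio can pass the threshold, and none is given.

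**Figure D3:**
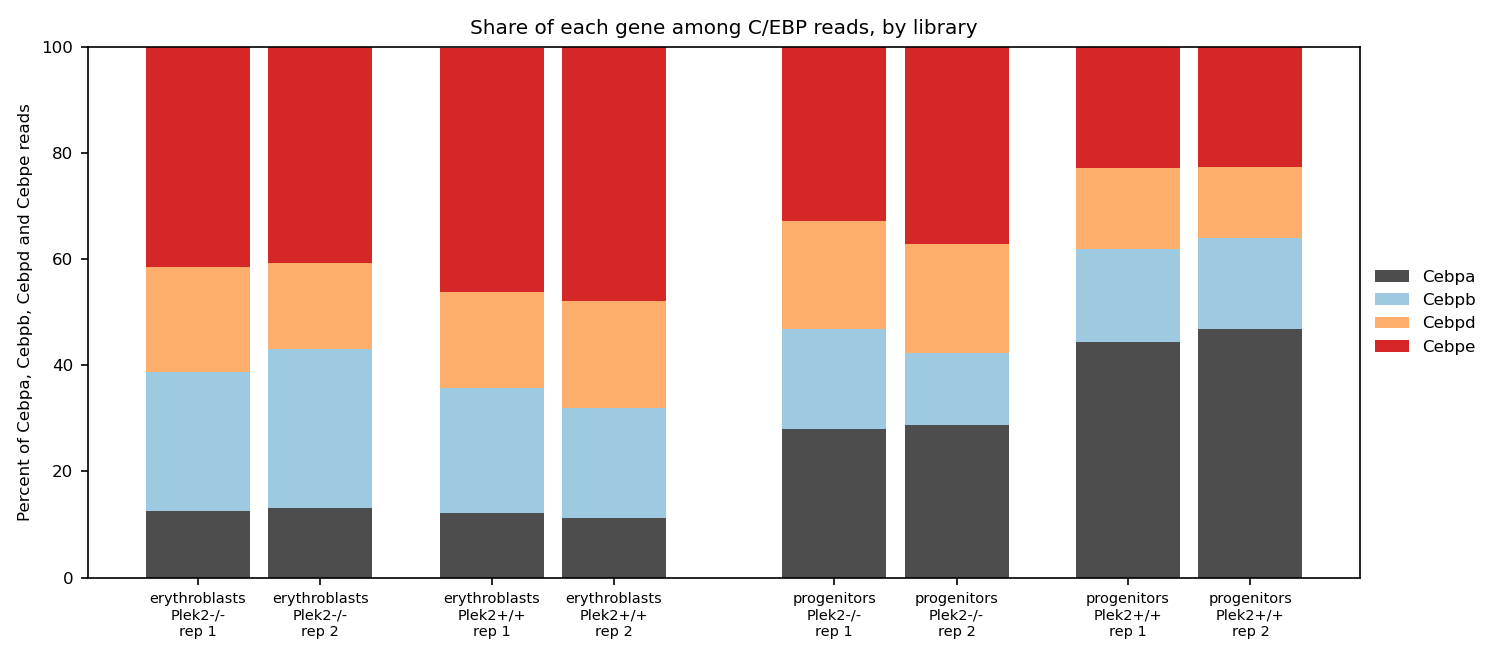
Percent of the summed Cebpa, Cebpb, Cebpd and Cebpe reads taken by each gene (stacked to 100%) in each of the 8 libraries. Cebpa takes 44.4% and 46.8% in the progenitors labelled Plek2+/+ and 28.1% and 28.8% in those labelled Plek2-/-, and 11.2% to 13.1% in the erythroblasts.

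Spi1 (PU.1), the ETS factor shared by granulocytes, monocytes and B cells, lies on chromosome 2 from 91082390 to 91115756 (plus strand). In erythroblasts it fell to 41.9 and 33.9 CPM in libraries labelled Plek2-/-, against 56.2 and 59.9 CPM in those labelled Plek2+/+. This was a change of -0.61 on the log2 scale (SE 0.12, edgeR adjusted p = 0.0176; from 0.0611 to 0.136 without Plek2-/- replicate 2 or either Plek2+/+ library). In progenitors it had 113 and 114 CPM in libraries labelled Plek2-/-, against 101 and 95.7 CPM in those labelled Plek2+/+. These groups do not overlap either, but the difference was not called (log2 0.25, SE 0.06, edgeR adjusted p = 0.0773). The interaction was -0.83 (SE 0.14, edgeR adjusted p = 0.00264) and was called without any 1 library, but not with the progenitor labels exchanged (log2 -0.41, edgeR adjusted p = 0.172).

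PU.1 and Gata1 restrain each other where myeloid and erythroid fates part. Gata1 did not pass the test (log2 0.09, edgeR adjusted p = 0.733 in erythroblasts; log2 0.05, edgeR adjusted p = 0.788 in progenitors). There were 0.157 and 0.111 Spi1 reads per Gata1 read in erythroblasts labelled Plek2-/-, against 0.214 and 0.214 in those labelled Plek2+/+. In progenitors the ratio was 2.89 and 3.03 under the Plek2-/- label, against 2.69 and 2.47 under Plek2+/+. These are ratios of bulk samples, so the mix of cells and the balance within cells cannot be told apart.

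Gfi1, a zinc finger repressor that favours granulocytes over monocytes, lies on chromosome 5 from 107716657 to 107726036 (minus strand). It had 14.1 and 16.3 CPM in erythroblasts labelled Plek2-/-, against 19.1 and 20.1 CPM in those labelled Plek2+/+. In progenitors it had 48.7 and 51.1 CPM under the Plek2-/- label, against 40.6 and 42.1 CPM under Plek2+/+. Neither difference was called (log2 -0.35, SE 0.14, edgeR adjusted p = 0.256; log2 0.31, SE 0.07, edgeR adjusted p = 0.0534), though neither pair of groups overlaps. The interaction was called (log2 -0.63, SE 0.15, edgeR adjusted p = 0.021), and was lost without Plek2+/+ erythroblast replicate 2, either Plek2+/+ progenitor library or Plek2-/- progenitor replicate 2 (edgeR adjusted p from 0.0605 to 0.109). With the progenitor labels exchanged it was -0.093 (edgeR adjusted p = 0.848).

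Irf8, the interferon regulatory factor of monocytes and dendritic cells, lies on chromosome 8 from 120736358 to 120756694 (plus strand). It ran opposite to Cebpe in progenitors: 386 and 349 CPM in libraries labelled Plek2-/-, against 435 and 477 CPM in those labelled Plek2+/+. The groups do not overlap, but the difference was not called (log2 -0.27, SE 0.08, edgeR adjusted p = 0.111). In erythroblasts it had 80.5 and 59.6 CPM under the Plek2-/- label, against 84.7 and 97.9 CPM under Plek2+/+ (log2 -0.38, SE 0.13, edgeR adjusted p = 0.163). There were 5.82 and 4.67 Irf8 reads per Cebpe read in progenitors labelled Plek2-/-, against 11.2 and 13.3 in those labelled Plek2+/+, and 1.65 and 1.61 in erythroblasts labelled Plek2-/-, against 1.32 and 1.38 in those labelled Plek2+/+.

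Klf4, a zinc finger factor of monocytes, lies on chromosome 4 from 55527143 to 55532466 (minus strand) and was the least abundant of the 10 per kilobase in erythroblasts. It had 6.49 and 4.35 CPM in erythroblasts labelled Plek2-/-, against 8.20 and 7.46 CPM in those labelled Plek2+/+ (log2 -0.53, SE 0.22, edgeR adjusted p = 0.281). In progenitors it had 34.8 and 36.5 CPM under the Plek2-/- label, against 36.9 and 45.9 CPM under Plek2+/+ (log2 -0.18, 95% interval -0.42 to 0.07). Irf8 and Klf4 stayed near 1 ratio to each other: 9.55 to 13.7 Irf8 reads per Klf4 read over the 8 libraries, with the libraries of each pair of labels overlapping in erythroblasts and in progenitors.

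Runx1, the core binding factor of definitive blood stem cells, lies on chromosome 16 from 92601466 to 92826149 (minus strand). It had 61.7 and 63.1 CPM in erythroblasts labelled Plek2-/-, within the 64.6 and 51.7 CPM of those labelled Plek2+/+ (log2 0.11, 95% interval -0.14 to 0.36). In progenitors it had 115 and 135 CPM under the Plek2-/- label, against 143 and 150 CPM under Plek2+/+, without a call (log2 -0.19, SE 0.08, edgeR adjusted p = 0.296).

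Id2, an inhibitor of E proteins used by dendritic and innate lymphoid cells, lies on chromosome 12 from 25093799 to 25097140 (minus strand), 53791550 bases from Plek2. In progenitors it rose to 44.4 and 45.3 CPM in libraries labelled Plek2-/-, against 31.7 and 33.6 CPM in those labelled Plek2+/+ (log2 0.50, SE 0.07, edgeR adjusted p = 0.00792; 0.119 and 0.0927 without Plek2+/+ replicate 1 or 2). In erythroblasts it had 31.5 and 25.5 CPM under the Plek2-/- label, against 37.7 and 39.7 CPM under Plek2+/+ (log2 -0.43, SE 0.12, edgeR adjusted p = 0.0878). The interaction was -0.90 (SE 0.15, edgeR adjusted p = 0.00276), called without any 1 library. With the progenitor labels exchanged it was 0.014 (edgeR adjusted p = 0.981). It is the only one of the 10 on the chromosome that carries Plek2.

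Annotated genes on the other strand overlap Cebpa, Cebpb, Cebpd, Gfi1 and Runx1, and Irf8 lies inside a longer gene model on its own strand. Whether counting used strand is not given in the sources used here, so reads from such partners cannot be told apart from the factors' own.

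The contrast of erythroblasts against progenitors asks where each factor is expressed. Irf8, Klf4 and Cebpa were far lower in erythroblasts, with log2 differences of -2.32, -2.40 and -2.15 under the Plek2+/+ label (edgeR adjusted p = 2.55e-09, 1.52e-08 and 6.19e-10). Runx1, Gfi1 and Spi1 were lower by 2.52-fold, 2.11-fold and 1.69-fold. Cebpe was the exception, 1.81-fold higher in erythroblasts labelled Plek2+/+ than in progenitors labelled Plek2+/+ (67.6 ± 4.62 against 37.4 ± 2.18 CPM, with SD over 2 libraries a group; edgeR adjusted p = 2.57e-05). With library totals only as the scale that difference of Cebpe was 0.04 on the log2 scale, where the median of all genes was -0.87. Under the Plek2-/- label Cebpe was 1.65-fold lower in erythroblasts (edgeR adjusted p = 0.000116). Its level was 43.0 ± 8.28 CPM there, against 70.5 ± 5.91 CPM in progenitors (SD over 2 libraries a group). The 12 late neutrophil genes described below went in the directions of Cebpe. All 12 were called higher in erythroblasts under Plek2+/+ (median log2 1.64) and all 12 lower under Plek2-/- (median log2 -0.78). These contrasts rest on progenitor labels that Plek2 goes against. Cebpe overlapped in level between erythroblasts labelled Plek2+/+ and progenitors labelled Plek2-/-, and between the other pair of groups. The summed late neutrophil genes overlapped in the first pair, at 21061 and 24024 against 20440 and 27204 CPM. In the other pair they did not, at 16396 and 14573 against 8479 and 5411 CPM. The part of neutrophil RNA in the contrasts was not tested.

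Under the Plek2+/+ label 1 factor was called higher and 6 lower in erythroblasts, where 36.0% and 37.8% of all genes were. Under the Plek2-/- label 9 were called lower and 0 higher, where 39.2% and 37.5% of all genes were. Both contrasts thus change most genes, and the shares of the factors are read against that. Cebpd, Id2 and Cebpb gave no call under Plek2+/+ (log2 0.23, 0.24 and 0.16). With library totals only they turned to -0.59, -0.57 and -0.65, all called. Under the Plek2-/- label Cebpd and Id2 were 2.16-fold and 1.58-fold lower in erythroblasts. These contrasts share libraries with the comparisons of labels.

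Levels of different genes can be compared only per length. On CPM per kilobase of exons, Cebpe was the most abundant of the 10 in erythroblasts, at 34.6 ± 6.67 under the Plek2-/- label and 54.5 ± 3.73 under Plek2+/+ (SD, n = 2 each). Klf4 was the lowest there, at 1.78 ± 0.497 and 2.57 ± 0.171 (SD, n = 2 each). In progenitors labelled Plek2-/- Cebpe and Irf8 stood side by side at 56.8 ± 4.76 and 52.0 ± 3.70 CPM per kilobase. In those labelled Plek2+/+ Irf8 led at 64.6 ± 4.13, ahead of Spi1 at 36.5 ± 1.35 and Cebpe at 30.1 ± 1.76 (SD, n = 2 each). With the length of the longest transcript in place of all exons Irf8 came first in both progenitor groups, at 106 and 131 CPM per kilobase, and Cebpe remained first in erythroblasts.

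Promoter sequence was not at hand for Cebpd, Cebpe and Spi1. For the other 7 of the 10 factors it came from RefSeq on GRCm38.p6: 10 promoters of 300 bases, from 250 before to 50 after a transcript start. They were searched on both strands for a C/EBP motif (TTGCNNAA), the PU.1 core (GAGGAA), the RUNX core (TGTGGT) and the STAT motif (TTCNNNGAA), the last since JAK2 signals through STAT factors. The motifs occur in 10.8%, 28.3%, 16.8% and 8.30% of the 32851 promoters of the table, and each in 1 of the 10. The 3 windows with a match before the start are shown, since they belong to factors whose levels are given above, with the matched letters in capitals.
Irf8 promoter, STAT motif matches 171 and 153 bases before the start, chr8:120736147-120736246, plus strand: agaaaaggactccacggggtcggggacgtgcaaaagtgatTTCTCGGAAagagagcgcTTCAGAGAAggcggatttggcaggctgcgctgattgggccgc
Gfi1 promoter, C/EBP motif match 143 bases before the start, chr5:107725889-107725988, minus strand: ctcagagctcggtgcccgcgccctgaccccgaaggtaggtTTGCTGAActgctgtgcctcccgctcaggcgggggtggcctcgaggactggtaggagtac
Runx1 second promoter, PU.1 core match 46 bases before the start, chr16:92697330-92697429, minus strand: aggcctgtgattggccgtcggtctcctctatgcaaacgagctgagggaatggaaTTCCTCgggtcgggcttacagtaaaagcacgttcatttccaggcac
The first Runx1 promoter held the RUNX core at 29 and 37 bases after the start. No match to these motifs was found in the promoter windows of Cebpa, Cebpb, Klf4 and Id2, nor in the second promoters of Irf8 and Gfi1. A match describes the letters and shows no binding.

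Neutrophil messages differed between the labels in the direction of Cebpe in both populations, and opposite to Cebpa and Irf8 in progenitors. A list of 12 late neutrophil genes, among them the secondary granule genes that C/EBP epsilon is known to activate, took 1.25% and 1.11% of all counts in erythroblasts labelled Plek2-/-, against 1.63% and 1.77% in those labelled Plek2+/+. In progenitors it took 2.71% and 3.53% under the Plek2-/- label, against 1.1% and 0.718% under Plek2+/+. Of the 12, 8 were called lower in erythroblasts (median log2 -0.57) and 12 higher in progenitors (median log2 1.84). Of all genes tested, 2.66% were called lower in erythroblasts and 4.50% higher in progenitors. The gelatinase gene Mmp9 had 599 ± 91.4 CPM in progenitors labelled Plek2-/-, against 230 ± 63.3 CPM with Plek2+/+ as the label (SD over 2 libraries a group; edgeR adjusted p = 0.00389).

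All 9 neutrophil markers in the table had over 3 counts in every library, none at 0. Their sum was 5064 and 5946 CPM in erythroblasts labelled Plek2-/-, against 7918 and 8936 CPM under Plek2+/+, and 7993 and 11479 CPM in progenitors labelled Plek2-/-, against 1935 and 3327 CPM under Plek2+/+. Set against the 12 late neutrophil genes of the same library, Cebpe stood at 2.98 and 2.55 reads per 1000 in erythroblasts labelled Plek2-/-, against 3.06 and 2.95 under Plek2+/+, which overlap. Spi1 stood at 2.55 and 2.33, against 2.67 and 2.49, which overlap. In progenitors Cebpe had 3.24 and 2.74 reads per 1000 under the Plek2-/- label, against 4.59 and 6.62 under Plek2+/+. For Irf8 the ratio was 18.9 and 12.8, against 51.4 and 88.1. Every factor had a lower ratio under the Plek2-/- label in progenitors, without overlap. The late neutrophil share itself was higher under that label, so any factor that rose less has a lower ratio. These progenitor ratios therefore do not single out Cebpe or Irf8. The part of neutrophil RNA in the differences of the factors was not tested.

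**Figure D4:**
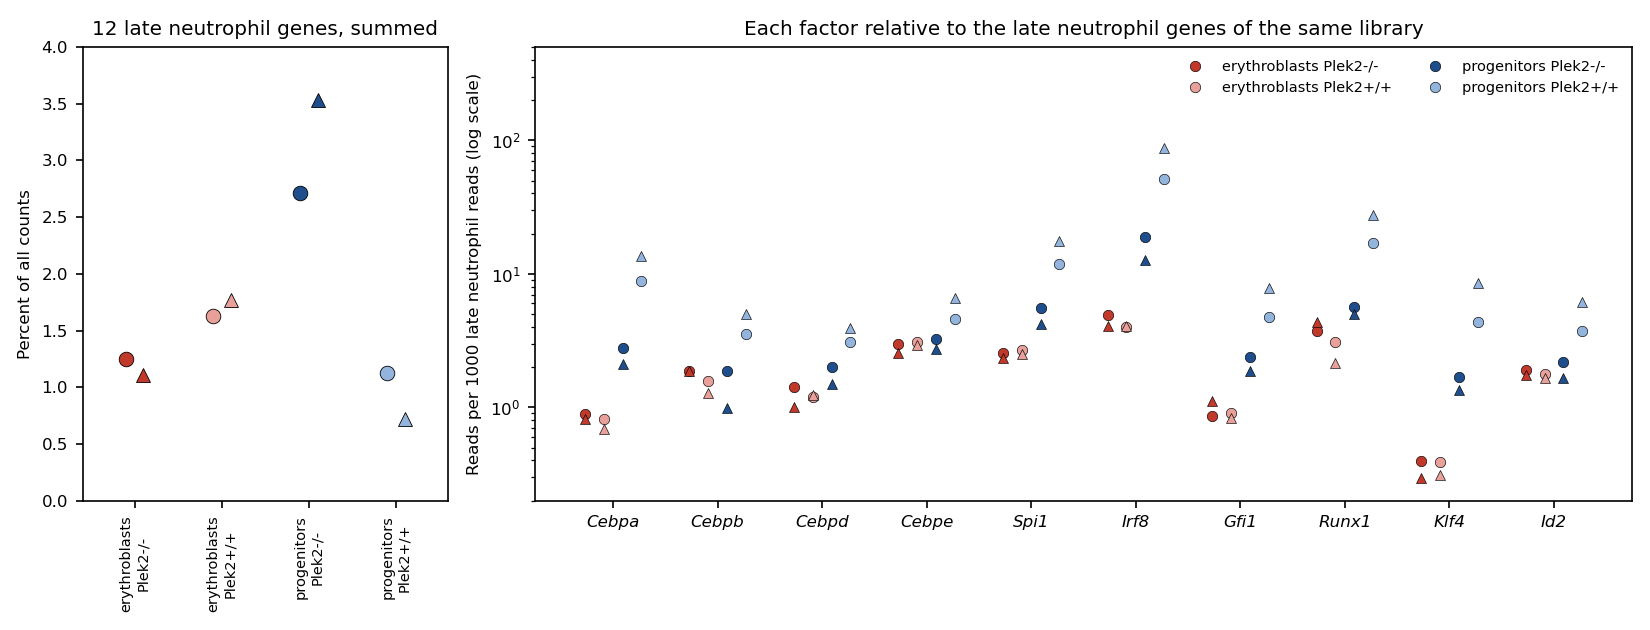
Left, percent of all counts taken by 12 late neutrophil genes in each library (linear from 0); right, reads of each factor per 1000 late neutrophil reads of the same library (log scale), by population and Plek2 label, with circles for replicate 1 and triangles for replicate 2. Cebpe lies between 2.55 and 3.24 in all libraries but the progenitors labelled Plek2+/+, at 4.59 and 6.62.

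Receptors and primary granule genes include known targets of these factors. Of 7 myeloid cytokine receptors, 1 was lower in erythroblasts (median log2 -0.42) and 2 higher in progenitors (median log2 -0.04). This list and those below are read beside the 2.66% of all genes called lower in erythroblasts and 4.50% called higher in progenitors. Csf3r, which encodes the G-CSF receptor and is a target of C/EBP factors, had 231 ± 22.6 CPM in progenitors labelled Plek2-/-, against 98.4 ± 10.2 CPM under Plek2+/+ (SD, n = 2 each; log2 1.28, edgeR adjusted p = 0.000925). Csf2ra rose 1.28-fold there, and Csf2rb, the shared beta chain for GM-CSF, fell 1.58-fold in erythroblasts. Csf1r, the monocyte receptor regulated by PU.1, had log2 fold changes of -0.42 and -0.27 without a call (edgeR adjusted p = 0.149 in erythroblasts and 0.0592 in progenitors).

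Of the 8 genes in the primary granule list 4 were lower in erythroblasts (median log2 -0.44), where 2.66% of all genes were. The protease gene Prss57 (1.72-fold) and the protease inhibitor gene Serpinb1a (1.46-fold) led them. In progenitors 1 was higher, the inhibitor gene Serpinb1a at 1.66-fold, while 5 of the 8 had negative values and the median was -0.14. Of the 10 genes in the monocyte list 1 was lower in erythroblasts, the oxidase gene Cybb at log2 -0.58 (median log2 -0.34). In progenitors Cybb rose 1.83-fold and Ly86 fell 1.27-fold, while 7 of the 10 had negative values and the median was -0.13. The list's 10 genes took 0.114% and 0.0882% of counts in erythroblasts labelled Plek2-/-, against 0.140% and 0.126% under Plek2+/+, which do not overlap. In progenitors they took 0.376% and 0.377% under the Plek2-/- label, against 0.373% and 0.411% under Plek2+/+, which overlap. The 8 monocyte and macrophage markers, none at 0, summed to 992 and 1316 CPM in erythroblasts labelled Plek2-/-, against 1267 and 1319 CPM under Plek2+/+. In progenitors they summed to 1738 and 1899 CPM under the Plek2-/- label, against 2049 and 2317 CPM under Plek2+/+. Irf8 and Klf4 also lay lower there, but neither was called. A sum does not show that its markers moved together. The part of monocyte RNA was not tested.

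Among partners and relatives of the factors few were called. In the list of C/EBP relatives and Tribbles regulators 0 of 7 were called in erythroblasts (median log2 0.19) and 1 in progenitors: Trib1, which directs the breakdown of C/EBP alpha protein, rose 1.98-fold (25 ± 1.61 against 13.1 ± 1.76 CPM, with SD over 2 libraries a group; edgeR adjusted p = 0.00334). Trib3, which has the highest mean CPM of that list over the 8 libraries, gave log2 0.24 in erythroblasts (edgeR adjusted p = 0.452). Of the PU.1 and IRF8 partners 2 of 11 were lower in erythroblasts (median log2 -0.04) and 0 of 12 called in progenitors (median log2 0.06). The lower ones were Spib, the closest relative of PU.1, at 2.20-fold (15.3 ± 2.60 against 34.1 ± 1.52 CPM; SD, n = 2 each) and Irf4, which resembles Irf8, at 1.80-fold. Both are B cell factors, and B cell markers summed to 27.9 and 40.1 CPM in erythroblasts labelled Plek2-/-, against 60.1 and 65.8 CPM under Plek2+/+. The part of B cell RNA was not tested. Zeb2, which has the highest mean CPM of that list over the 8 libraries, stood at log2 -0.18 in progenitors (edgeR adjusted p = 0.339).

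In the list of other Krüppel-like factors 0 of 5 were called in erythroblasts (median log2 -0.04) and 1 in progenitors (median log2 0.13), Klf6 at 1.46-fold higher. The remaining lists had 0 calls in either population: 7 RUNX1 partners (median log2 -0.22 in erythroblasts and -0.05 in progenitors), 6 GFI1 relatives and corepressors (0.10 and 0.00), 6 Id and E proteins (-0.05 and 0.03) and 7 erythroid factors (0.00 and 0.03). Their members with the highest mean CPM over the 8 libraries were Cbfb, Ehmt2, Tcf3 and Tal1. Cbfb, the RUNX1 binding partner, had log2 -0.29 and -0.03, and the histone methyltransferase gene Ehmt2 -0.18 and -0.14. The E protein gene Tcf3 had -0.04 and -0.03, and Tal1 0.03 and 0.01. Klf13, the highest of the other Krüppel-like factors by the same measure, stood at log2 0.12 in erythroblasts.

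Patterns over the 8 libraries divided the factors by how close they ran. Closeness was measured as the root mean square difference of log2(CPM + 1), each gene centred on its mean over the 8 libraries. Irf8 and Klf4 differed by 0.12, Cebpa and Irf8 by 0.18, and Spi1 and Gfi1 by 0.19. Cebpd and Id2 differed by 0.21 and Cebpe and Id2 by 0.23. Cebpe and Klf4 were the farthest apart at 1.30. Among 9545 genes with at least 10 CPM in some group, those nearest to Cebpe were Mogat2 (0.081), Aldh3b1 (0.089) and Slc2a3 (0.092), where the median gene differed by 0.55. Those nearest to Spi1 were Slc28a2 (0.042), Arhgap4 (0.051) and Myo1f (0.052), and to Irf8 Slc7a6 (0.053), Ramp1 (0.064) and H2afy (0.082). The gene nearest to Cebpa was Ms4a2 (0.059), to Cebpb Stard3nl (0.083), to Cebpd Dgat1 (0.081), to Gfi1 Acap1 (0.074), to Runx1 Zc3h7b (0.050), to Klf4 Itpr3 (0.081) and to Id2 Sepx1 (0.067). The libraries share populations and depth, so these values are a description only.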

How the data were processed

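The deposited table holds raw counts, whole numbers of reads per gene symbol, in 8 libraries, 1 column each. Per the submitters' processing notes the tools were cutadapt 1.13, STAR 2.5.2a, HTSeq 0.6.1pl and DESeq2 1.14.1 on mm10. The annotation, the strand setting and what each tool did were not given in the sources used here. A second table, those counts divided by 1 constant per library, was not used.

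Counts were tested with edgeR 4.0.16 in R 4.3.3 (TMM, filterByExpr, quasi-likelihood, Benjamini-Hochberg over all genes). Comparisons of labels used the 4 libraries of a population (12241 and 13168 genes), and population contrasts and the interaction 1 fit of 8 libraries (13365 genes). SE is the log2 fold change over the root of F. Printed CPM use the TMM scale of the 8 libraries, so ratios of means can differ slightly from fitted folds. Alternatives used DESeq2 1.42.0 and limma 3.58.1. The fits were tested on simulated data. Libraries of 1 group differed beyond sampling noise, with chi-square over degrees of freedom from 5.84 to 16.4.

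Positions and exon lengths are from GENCODE vM21 (GRCm38, which is mm10), older symbols and promoters from RefSeq. Named genes are the 10 factors, the 3 genes nearest each factor in pattern and, per list, the 2 best called genes by adjusted p. Where a list had no call, the gene with the highest mean CPM over the 8 libraries was named, without regard to length. Csf1r, Gata1, Plek2 and Xist fall outside that rule; Csf1r and Gata1 were chosen after their values were seen. The factors, lists and tests were chosen with earlier results of these data known.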

Additional observations from a re-analysis of the deposited data

Results flagged for a closer look

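Under the labels as given, the effect of the Plek2 label differed between erythroblasts and progenitors for 5 of the 10 factors, by the interaction term of the fit of 8 libraries (edgeR quasi-likelihood test, adjusted p below 0.05; erythroblast effect minus progenitor effect on the log2 scale). The differences were -1.58 for Cebpe, -1.34 for Cebpd, -0.90 for Id2, -0.83 for Spi1 and -0.63 for Gfi1. Plek2 goes against the labels in progenitors, and these differences rest on them. With the progenitor labels exchanged they were 0.26 for Cebpe, 0.26 for Cebpd, 0.014 for Id2, -0.41 for Spi1 and -0.093 for Gfi1, and none was called (edgeR adjusted p from 0.172 to 0.981).

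Of the 22 genes named from the lists, 13 had such a difference, where 5.32% of all genes were called below 0 and 0.232% above. Many were named for a label difference in the same libraries, so their number is a description only. Among neutrophil and granule genes the differences were -2.63 for Lcn2, -2.24 for Mmp9, -2.10 for Mmp8, -2.06 for Cxcr2, -1.24 for Serpinb1a and -0.63 for Prss57. Among receptors they were -1.60 for Csf3r, -0.73 for Csf2ra and -0.73 for Csf2rb. The oxidase gene Cybb stood at -1.42, Trib1 at -1.37, Spib at -1.17 and Klf6 at -0.70. With the progenitor labels exchanged, Prss57 (-0.95), Csf2rb (-0.61) and Spib (-1.13) were still called below 0 (edgeR adjusted p = 0.00518, 0.0356 and 0.049). Csf3r (0.87) and Mmp8 (1.25) were called above 0 (edgeR adjusted p = 0.0231 and 0.0218). The rest of the 13 were not called.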

How the results depend on the processing

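Called factors numbered 2 in erythroblasts and 4 in progenitors under RLE scaling, library totals only, DESeq2, limma-voom and the replicate block, and 5 for the interaction under these settings. The fit of all 8 libraries gave 3 and 4. With no filter on low counts there were 5 and 7 factors and 845, 1315 and 1215 genes for erythroblasts, progenitors and the interaction, against 348, 646 and 742. Erythroblast genes numbered 230 with library totals only. With 1 library left out erythroblasts gave 25 to 995 genes and 0 to 5 factors, progenitors 239 to 2649 genes and 2 to 9 factors, and the interaction 401 to 1175 genes. The cause was not tested.

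With library totals only, the contrast of erythroblasts against progenitors under Plek2+/+ turned to -0.65 for Cebpb, -0.59 for Cebpd and -0.57 for Id2. With 1 library left out, values near 0 changed sign: Runx1 in erythroblasts ranged from -0.061 to 0.28, Cebpb in progenitors from -0.027 to 0.46 and in the population contrast under Plek2-/- from -0.39 to 0.10, and the interaction of Cebpa from -0.15 to 0.13 and of Irf8 from -0.34 to 0.067.

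With the progenitor labels exchanged, an alternative chosen after seeing the data, the interaction called 243 genes (100 above 0 and 143 below) and 1 factor. Xist ranked first by p there, at log2 -19.95, since the exchange turns sex along with the label. It turned sign to -0.73 for Cebpa, 0.061 for Cebpb, 0.26 for Cebpd, 0.26 for Cebpe, -0.13 for Runx1 and 0.014 for Id2.

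The labels do not say that a replicate number marks a shared mouse, and same-numbered libraries did not deviate together (correlations -0.0988 to 0.143 between groups). With the number as a replicate block 579 genes were called in erythroblasts, and no call of a factor changed.

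Klf4 rested on 64 to 134 reads per erythroblast library, and its SE of 0.22 there was the largest among the factors in the comparisons of labels. With the longest transcript as length, 20 of 40 group levels per kilobase moved by more than 1 SD.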
